A study of Mus musculus with 15 samples.

Results

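The acute phase and STAT3 response genes described here are 10 genes chosen by symbol. They are the serum amyloid A genes Saa1, Saa2 and Saa3, the lipocalin Lcn2, haptoglobin (Hp), the orosomucoid Orm1, the oncostatin M receptor gene Osmr, the transcription factor gene Stat3, and the regulators Socs3 and Bcl3. They were found by the gene name that the scanner files give each probe, which picked 16 of 56605 probes and 10 of 37008 gene names on a 1-colour Agilent mouse array. Pancreatic stellate cells (PSC), the fibroblast-like cells that lay down matrix in the injured pancreas, came from heterozygous mice (PSC HT) or wild-type mice (PSC WT) and were cultured to activation over 2 weeks. The other samples, mouse pancreatic cancer cells, were exposed for 24 h to medium conditioned by HT PSC, to medium conditioned by WT PSC, or to control medium. Each of these 5 groups has 3 arrays. The labels used here name neither the heterozygous locus nor the strain, the age of the mice or the cancer cell line. They also leave unsaid whether replicates are separate mice or cultures, so that p-values rest on a spread between samples that may be technical only.

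Acute phase proteins are secreted during inflammation, mainly by the liver, and many other cells make some of them locally. Cytokines of the interleukin-6 family, among them interleukin-6, LIF and oncostatin M, bind receptors that share or resemble the gp130 chain and activate JAK kinases, which phosphorylate STAT3. STAT3, often together with C/EBP and NF-kappaB factors, raises transcription of serum amyloid A, haptoglobin, orosomucoid and lipocalin 2, and of Socs3, whose product blocks the receptor and its kinases. In pancreatic cancer, stellate cells and other fibroblasts are a known source of interleukin-6 and LIF.

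The 3 Saa genes lie close together on chromosome 7, and their promoters are shown because 2 of them are nearly identical, which sets them apart from that of Saa3. RefSeq promoters were found for 8 of the 10 genes in build GRCm38.p6, and the 250 bases before the transcription start are printed 5′ to 3′. The Saa1 promoter (chr7:46742981-46743230, minus strand), the Saa2 promoter (chr7:46751583-46751832, plus strand) and the Saa3 promoter (chr7:46715677-46715926, minus strand) are followed by that of Socs3 (chr11:117969367-117969616, minus strand). Capitals mark matches to TTGCNNAA, a core of C/EBP sites, in the Saa promoters and to TTCNNNGAA, a core of STAT sites, in Socs3, both searched on both strands.
Saa1 promoter: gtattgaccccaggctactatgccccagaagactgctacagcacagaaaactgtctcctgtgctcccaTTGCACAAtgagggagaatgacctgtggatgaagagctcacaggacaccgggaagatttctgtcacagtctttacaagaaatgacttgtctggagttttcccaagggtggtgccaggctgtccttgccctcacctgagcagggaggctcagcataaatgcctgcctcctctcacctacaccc
Saa2 promoter: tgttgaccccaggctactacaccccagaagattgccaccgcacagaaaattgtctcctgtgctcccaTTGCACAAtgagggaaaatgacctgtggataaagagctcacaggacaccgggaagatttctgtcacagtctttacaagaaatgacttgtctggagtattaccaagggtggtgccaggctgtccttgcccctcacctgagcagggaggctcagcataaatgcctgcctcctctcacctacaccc
Saa3 promoter: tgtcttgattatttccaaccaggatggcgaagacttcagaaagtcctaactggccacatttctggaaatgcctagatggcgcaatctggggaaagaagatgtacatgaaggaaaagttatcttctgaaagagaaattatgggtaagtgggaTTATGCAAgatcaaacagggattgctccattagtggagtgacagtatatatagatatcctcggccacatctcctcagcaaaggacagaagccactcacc
Socs3 promoter: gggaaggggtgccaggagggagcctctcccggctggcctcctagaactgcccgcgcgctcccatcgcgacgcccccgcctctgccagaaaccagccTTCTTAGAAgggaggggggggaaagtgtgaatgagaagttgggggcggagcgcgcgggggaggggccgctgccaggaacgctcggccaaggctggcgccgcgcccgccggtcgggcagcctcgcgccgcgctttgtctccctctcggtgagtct
The promoters of Saa1 and Saa2 were identical at 94.8% of aligned positions, against 48.5% for Saa1 and Saa3 and 47.8% for Saa2 and Saa3. The C/EBP core was found in 4 of the 8 promoters, those of the 3 Saa genes and Lcn2, and in 9.6% of all 32841 promoters. The STAT core was found in 1 of the 8 (Socs3, bases -154 to -146) and in 7.0% of all promoters, and a core of NF-kappaB sites (GGG, any 2 bases, T, any 2 bases, CC, on both strands) in 0 of the 8 and in 15.9% of all. A match is a run of letters and does not show binding.

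The probes behind the Saa1 and Saa3 readings are shown because Saa3 had the widest contrast between the cell types among the 8 genes tested, and because Saa1 has the near copy Saa2. The Saa1 probe (mm9, chr7:53996070-53996129, minus strand) and the Saa3 probe (mm9, chr7:53967559-53967618, minus strand) are given as the files list them, in the build of the array design, which differs from that of the promoters.
Saa1 probe: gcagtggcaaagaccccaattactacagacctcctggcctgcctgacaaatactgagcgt
Saa3 probe: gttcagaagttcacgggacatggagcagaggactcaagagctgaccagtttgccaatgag
Whether the Saa1 probe also binds transcripts of its near copy Saa2 was not tested.

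Levels are given as log2 of the processed signal over the 75th percentile of the same array, so 0 is that percentile. A probe's level is not comparable with that of another probe. The 75th percentile was 913 to 1449 signal units, 54.3% to 63.8% of spots were well above background, and no spot was saturated. The arrays lay on 2 slides that each held every group, though not in equal numbers. Most arrays of PSC HT, HT PSC medium and control medium lay on slide 1, and most of PSC WT and WT PSC medium on slide 2. The main fits hold no term for slide. Of 8 fibroblast and stellate cell markers, 8 were well above background on every PSC array, and their summed level was 816 to 892 in PSC HT and 692 to 949 in PSC WT, against 15.6 to 23.1 in the cancer cells (in multiples of the 75th percentile). Epithelial markers summed to 610 to 743 in the cancer cells. PSC HT 3 stood apart from the other PSC arrays: its epithelial markers summed to 23.0, whereas PSC HT 1 and 2 had sums of 6.23 and 6.92 and the PSC WT arrays sums of 13.7 to 14.6. Cdh1, the epithelial cadherin, was well above background on 1 of 6 PSC arrays, PSC HT 3 (-2.45), and read -8.22 to -7.61 elsewhere in PSC.

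**Figure D1:**
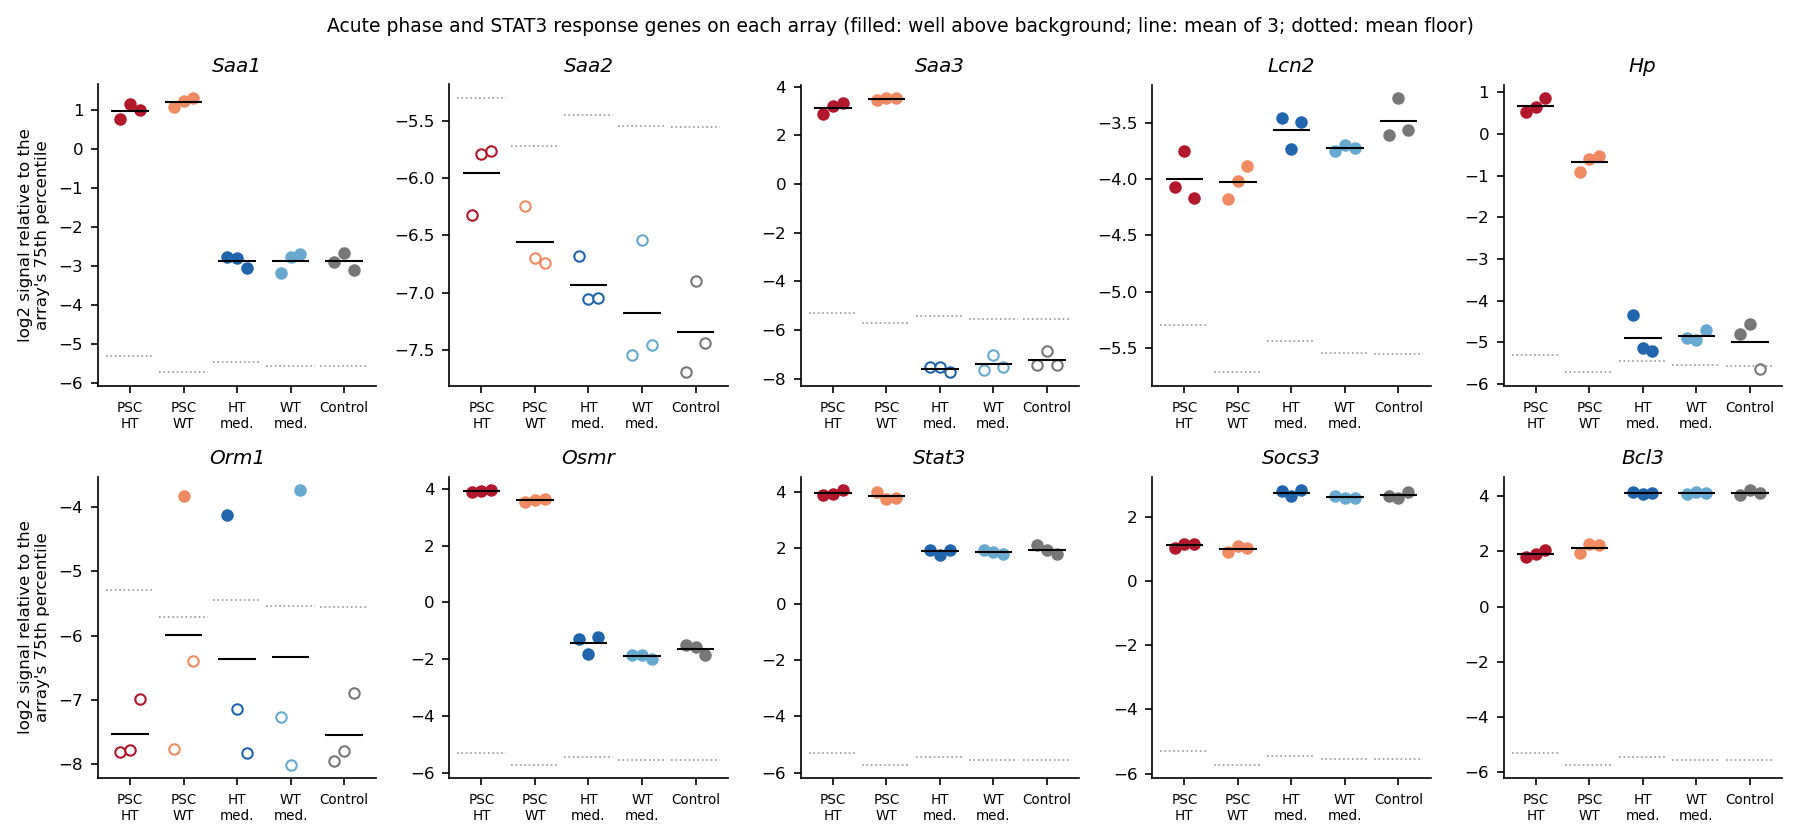
Log2 signal relative to the array's 75th percentile (y axis) for the brightest probe of each of the 10 genes in PSC HT, PSC WT, and cancer cells in HT PSC medium, WT PSC medium and control medium (x axis). Points are arrays, filled where well above background, lines are means of 3 arrays and dotted lines the mean floor of the group. Saa1, Saa3, Hp, Osmr and Stat3 sit higher in PSC, Socs3 and Bcl3 higher in cancer cells, and the Hp points of PSC HT lie above those of PSC WT.

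The first comparison asks how activated PSC of the 2 genotypes differ in these genes. In PSC HT, Hp was 2.56-fold higher than in PSC WT, and Osmr was 1.25-fold higher but close to the threshold. The other 6 genes with a test, Saa1, Saa3, Lcn2, Stat3, Socs3 and Bcl3, did not pass. Of 8 genes tested, 2 were higher and 0 lower at limma's adjusted p of 0.05, while 7.73% of all 20886 genes passed, 2.95% higher and 4.78% lower. The median difference over the 8 was 0.07 log2, and -0.003 over all genes tested.

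Haptoglobin, the plasma protein that captures free haemoglobin, read 0.53, 0.66 and 0.86 in PSC HT and -0.91, -0.59 and -0.53 in PSC WT (log2 levels). The groups do not overlap, and every HT array lies above every WT array by more than the spread within either group. The difference was 1.36 ± 0.14 (SE, n = 3 arrays per group, limma adjusted p = 0.00332). It was 1.60 within slide 1 and 1.22 within slide 2, where single groups hold 1 array and limma's adjusted p was 0.321 and 0.0356. Without PSC HT 3 it was 1.27 (limma adjusted p = 0.0112). In bulk samples such as these, more cells that express a gene and more RNA per cell cannot be told apart.

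Osmr, the receptor chain that pairs with gp130 to bind oncostatin M, read 3.91, 3.92 and 3.95 in PSC HT and 3.54, 3.61 and 3.65 in PSC WT. The groups do not overlap, and the 3 HT arrays are nearly equal. The difference was 0.33 ± 0.07 (limma adjusted p = 0.0386), with 0.39 within slide 1 and 0.29 within slide 2. Leaving out any 1 of the 6 arrays ended the call, with limma adjusted p of 0.0644 to 0.126, and it held in 3 of 20 alternatives. Of 2 dimmer Osmr probes, well above background on every PSC array, one read -1.18, -1.20 and -1.26 in PSC HT and -1.55, -1.35 and -1.39 in PSC WT. The other, which lists no RefSeq transcript, overlapped between genotypes, with a difference of 0.08.

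The serum amyloid A genes encode apolipoproteins that rise steeply in the blood in inflammation. Saa3, the form made mostly outside the liver in mice, read 2.87, 3.23 and 3.33 in PSC HT and 3.44, 3.52 and 3.53 in PSC WT. All HT arrays lie below all WT arrays, but the difference of -0.35 ± 0.13 did not pass (limma adjusted p = 0.174, 95% interval -0.67 to -0.04 before adjustment). Groups did not overlap for 3 of the 8 genes tested, Hp, Osmr and Saa3, and for 29.1% of all genes. Saa1 read 0.76, 1.15 and 1.00 in PSC HT and 1.06, 1.22 and 1.29 in PSC WT, which overlap (-0.22 ± 0.12, limma adjusted p = 0.357). Saa2 was not well above background on any of the 15 arrays, with readings of -6.32 to -5.76 in PSC HT and -6.74 to -6.24 in PSC WT, and was not tested.

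Lipocalin 2 binds bacterial iron carriers. Lcn2 read -4.07, -3.75 and -4.17 in PSC HT and -4.18, -4.02 and -3.88 in PSC WT, with overlapping groups and a difference of 0.03 ± 0.14 (95% interval -0.30 to 0.37). Its other probe was not well above background on any array. Orm1, a plasma carrier of drugs and lipids, was well above background on 0 of 3 PSC HT arrays, at -7.82 to -6.99, and on 1 of 3 PSC WT arrays, at -7.77, -3.82 and -6.39. It was not tested, and its probe lists accessions of both Orm1 and Orm2.

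Stat3 itself, the transcription factor of the pathway, read 3.89, 3.95 and 4.06 in PSC HT and 4.0, 3.76 and 3.78 in PSC WT. The groups overlap, and the difference was 0.12 ± 0.10 (limma adjusted p = 0.552, 95% interval -0.11 to 0.35). A dimmer Stat3 probe, well above background on every PSC array, differed the other way without overlap, at -3.40, -3.63 and -3.53 in PSC HT and -3.22, -3.13 and -3.36 in PSC WT (-0.28). That probe lists no RefSeq transcript. Another Stat3 probe, which lists the same RefSeq transcripts as the brightest, gave 0.10. Socs3, which blocks gp130 signalling, read 1.03, 1.14 and 1.13 in PSC HT and 0.89, 1.07 and 1.01 in PSC WT (0.11 ± 0.08, limma adjusted p = 0.496). Bcl3, a nuclear partner of NF-kappaB p50 and p52, read 1.78, 1.90 and 2.03 in PSC HT and 1.93, 2.25 and 2.21 in PSC WT (-0.22 ± 0.12, limma adjusted p = 0.331). Socs3 and Bcl3 both overlap between the genotypes. A dimmer Bcl3 probe, which lists no RefSeq transcript, was not well above background on any array.

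Markers of other cells moved with the genotype, and their part in these differences was not tested. Of 12 macrophage markers, 10 were higher in PSC HT, 0 were lower and 1 was not tested, and their summed level was 166, 66.8 and 67.2 in PSC HT, against 27.9, 16.2 and 14.9 in PSC WT. Of 6 mesothelial markers 5 were lower (summed level 10.5 to 17.1 in PSC HT and 38.8 to 48.0 in PSC WT), and of 5 endothelial markers 4 were lower (0.253 to 0.312 in PSC HT and 1.14 to 1.31 in PSC WT). Both the macrophage sum and Hp were higher on every PSC HT array than on every PSC WT array. On PSC HT 1 the sum was 166 and Hp read 0.53, and a link between them was not tested. The hepatocyte markers Alb, Ttr, Apoa1, Ahsg and Serpina1c were well above background on 0 of 6 PSC arrays, and 0 of 4 tested neutrophil markers passed.

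**Figure D2:**
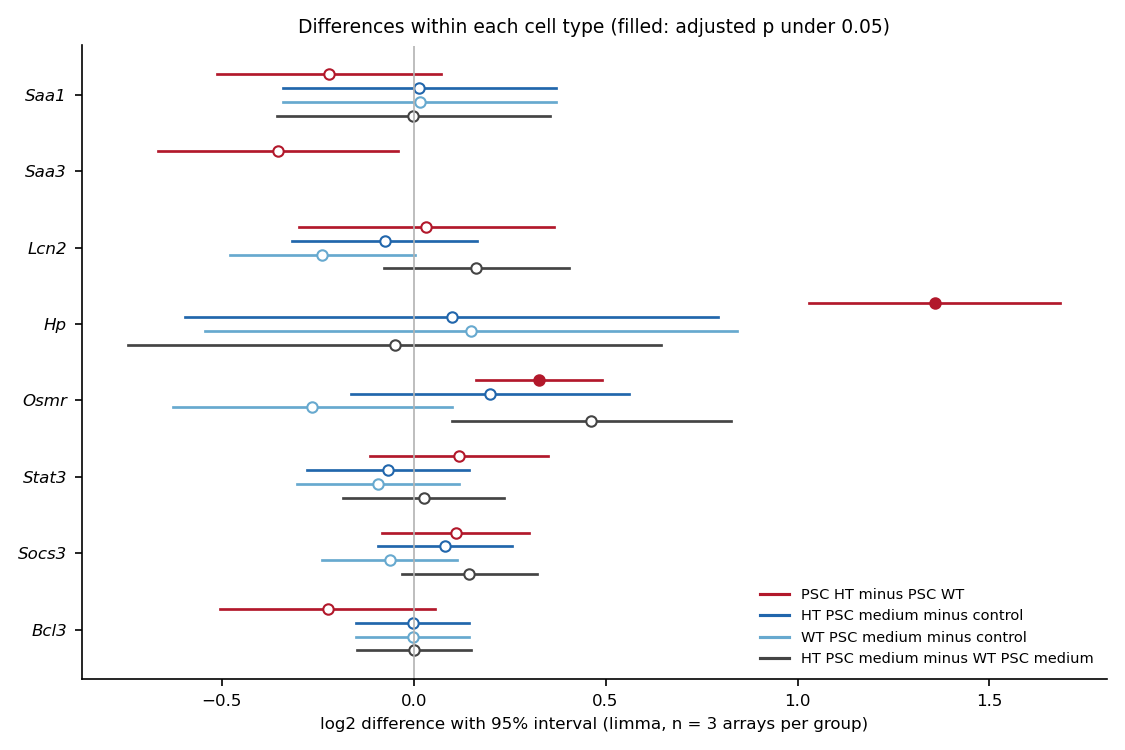
Log2 differences (x axis) with 95% intervals from limma, n = 3 arrays per group, for each gene with a test (y axis) in PSC HT against PSC WT, HT PSC medium against control, WT PSC medium against control, and HT against WT PSC medium. Filled points passed an adjusted p of 0.05: only Hp (1.36) and Osmr (0.33) between the PSC genotypes.

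Genes of the interleukin-6 family pathway were read from a list of 81 genes grouped by role. Between the PSC genotypes, 11 of 65 tested were higher and 8 lower in PSC HT, and the list's median difference was 0.04. Over all genes 2.95% were higher and 4.78% lower. Every role held at least 1 gene that was higher. Ligands, kinases and transcription factors, targets and acute phase proteins also held genes that were lower.

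Among ligands, 2 of 10 tested were higher in PSC HT and 1 was lower. Il6 read 3.06, 2.79 and 2.90 in PSC HT and 2.21, 2.41 and 2.39 in PSC WT, without overlap (0.58 ± 0.10, limma adjusted p = 0.0232). Il11, whose product also signals through gp130, differed by 0.57 ± 0.13 (limma adjusted p = 0.0485). Ctf1, which encodes cardiotrophin-1, was lower, at -1.04, -0.99 and -0.90 in PSC HT against -0.31, -0.18 and -0.17 in PSC WT (-0.76 ± 0.08, limma adjusted p = 0.00402). The gp130 gene Il6st and the interleukin-6 receptor gene Il6ra did not pass, at 0.19 ± 0.08 and -0.13 ± 0.08. The receptor genes Cntfr (0.58 ± 0.13) and Il10ra (2.96 ± 0.54, with 2 of 3 WT arrays well above background) were higher. Jak2 was higher by 0.44 ± 0.09, Jak1 and Cebpd did not pass (0.24 ± 0.06 and 0.02 ± 0.12), and Nfkbiz, which encodes the nuclear protein IkappaB-zeta, was lower (-0.75 ± 0.15, limma adjusted p = 0.0362).

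Other acute phase protein genes moved in both directions, with 4 higher and 4 lower of 15 tested. Lbp, the lipopolysaccharide-binding protein gene, read -0.98, -0.86 and -0.66 in PSC HT and -2.15, -1.90 and -2.07 in PSC WT (1.20 ± 0.11, limma adjusted p = 0.00261). Serpina3n, a serine protease inhibitor gene, read -4.12, -4.37 and -4.04 in PSC HT and -2.53, -2.18 and -2.09 in PSC WT (-1.91 ± 0.15, limma adjusted p = 0.00146). Neither gene overlaps between the genotypes, and they lie in opposite directions. Ptx3, the long pentraxin, was higher by 1.13 ± 0.20. Il1rn, the interleukin-1 receptor antagonist gene, read -1.66, -3.61 and -2.74 in PSC HT and -5.26, -5.16 and -5.22 in PSC WT (2.54 ± 0.45, limma adjusted p = 0.0239). Its highest PSC reading was on PSC HT 1, as for the macrophage marker sum. Il1rn was also higher in control cancer cells than in PSC WT, and PSC HT 3 was the PSC array with Cdh1 well above background. The part of macrophages or epithelial cells in the Il1rn difference was not tested.

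Of 7 inhibitor genes tested 1 was higher, Ptpn6, which encodes the phosphatase SHP-1, by 2.69 ± 0.52. Ptpn6 was also well above background on every cancer cell array. Ptpn6 and Il10ra were highest on PSC HT 1, at -1.10 and -1.40. The macrophage marker sum was highest on the same array, and a link between them was not tested. Of 13 target genes tested, the adhesion molecule gene Icam1 read 0.90, 0.55 and 0.77 in PSC HT and 1.55, 1.94 and 1.99 in PSC WT (-1.09 ± 0.15, limma adjusted p = 0.0106). Steap4, a metalloreductase gene, was at least 1.76-fold lower in PSC HT, where no array was well above background, and Tgm2, the tissue transglutaminase gene, was higher by 0.49 ± 0.08.

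Within slides 1 and 2 the differences kept their sign for all 19 genes of the list that passed, for example 0.77 and 0.39 for Il6, 1.33 and 1.12 for Lbp, -1.55 and -2.23 for Serpina3n, -0.66 and -0.81 for Ctf1 and 3.06 and 1.58 for Il1rn. Lbp, Serpina3n and Ctf1 passed whichever array was left out. Mt1 and Mt2, acute phase genes of the list that were lower in PSC HT, did so too. Icam1 was lost without PSC WT 2, and Ptx3 without PSC WT 3, PSC HT 2 or PSC HT 3. Il10ra was lost without any 1 PSC WT array or PSC HT 2, Il1rn without any 1 PSC WT array or PSC HT 3, and Ptpn6 and Tgm2 without PSC WT 2, PSC WT 3, PSC HT 2 or PSC HT 3. Il11, Cntfr and Steap4 passed only without PSC WT 1, Nfkbiz only without PSC HT 1, Il6 only without PSC HT 2, and Jak2 only without PSC HT 3. With slide as a block, Il11 (limma adjusted p = 0.0821), Cntfr (0.0698), Il10ra (0.0576), Jak2 (0.0637), Steap4 (0.0693) and the ceruloplasmin gene Cp (0.0583) did not pass.

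**Figure D3:**
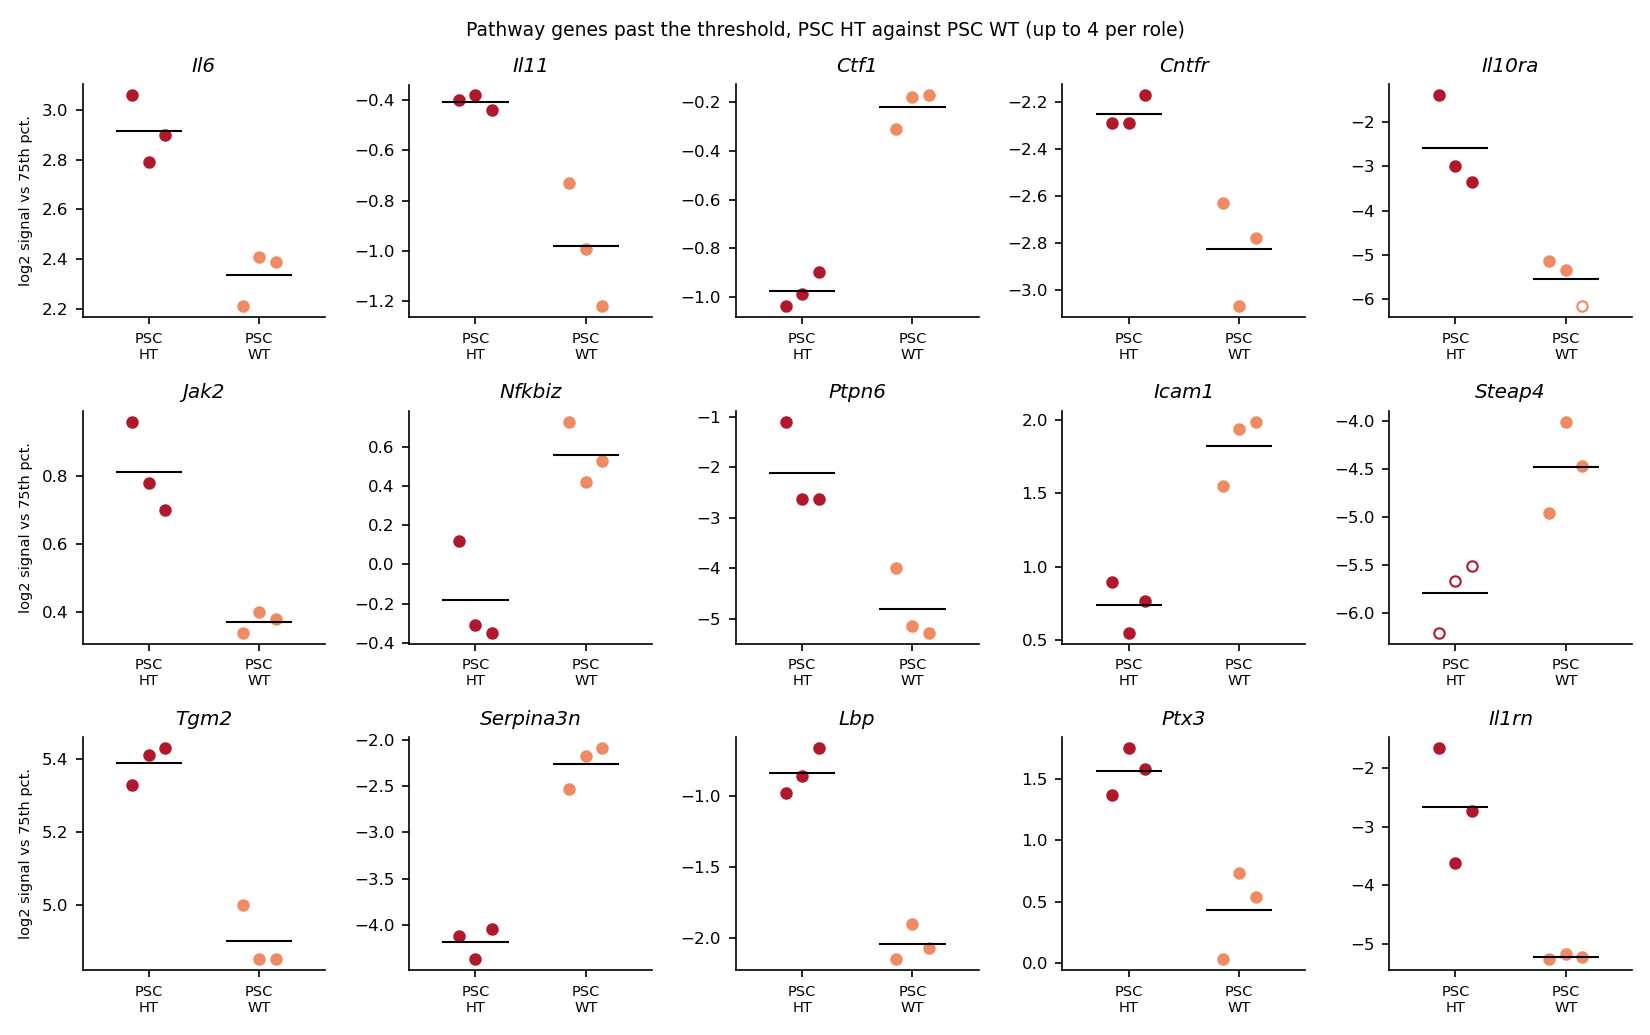
Log2 signal relative to the array's 75th percentile (y axis) in PSC HT and PSC WT (x axis) for the pathway genes past the threshold, at most 4 per role. Points are arrays, filled where well above background, and lines are means of 3 arrays. Il6 and Lbp sit higher in PSC HT, Ctf1, Icam1 and Serpina3n lower, and PSC HT 1 is the highest array for Il10ra, Ptpn6 and Il1rn.

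The second comparison asks whether medium conditioned by PSC changes these genes in cancer cells. With HT PSC medium, 0 of 7 tested passed limma's adjusted p of 0.05, and with WT PSC medium 0 of 7, with 0 at an unadjusted p under 0.05 in either. Of all 19687 genes, 5.47% passed with HT PSC medium (2.97% higher, 2.5% lower) and 5.95% with WT PSC medium (2.8% higher, 3.15% lower). The median difference over the 7 genes was 0.02 with HT PSC medium and -0.06 with WT PSC medium, and 0.011 and 0.025 over all genes. Both comparisons use the same 3 control arrays.

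Bcl3 read 4.13, 4.08 and 4.09 in HT PSC medium, 4.06, 4.13 and 4.10 in WT PSC medium and 4.02, 4.20 and 4.09 in control medium. These 3 groups overlap, and the 95% interval was -0.15 to 0.15 for HT PSC medium and -0.15 to 0.14 for WT PSC medium. Stat3 read 1.94, 1.77 and 1.95 in HT PSC medium, 1.93, 1.85 and 1.81 in WT PSC medium and 2.12, 1.93 and 1.81 in control medium, with intervals of -0.28 to 0.14 for HT PSC medium and -0.30 to 0.12 for WT PSC medium. Socs3 read 2.78, 2.64 and 2.81 in HT PSC medium, 2.64, 2.59 and 2.57 in WT PSC medium and 2.65, 2.56 and 2.77 in control medium. Its intervals against control were -0.09 to 0.26 with HT PSC medium and -0.24 to 0.11 with WT PSC medium, so changes beyond these bounds were not seen at this number of arrays.

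Osmr read -1.28, -1.80 and -1.23 in HT PSC medium, -1.85, -1.85 and -2.01 in WT PSC medium and -1.50, -1.57 and -1.85 in control medium. Its difference from control was 0.20 ± 0.16 with HT PSC medium (limma adjusted p = 0.558) and -0.26 ± 0.16 with WT PSC medium (limma adjusted p = 0.399). Lcn2 read -3.46, -3.73 and -3.49 in HT PSC medium, -3.75, -3.70 and -3.72 in WT PSC medium and -3.61, -3.28 and -3.56 in control medium. Its WT PSC medium arrays all lie below the controls, with a difference of -0.24 ± 0.11 (limma adjusted p = 0.251). Groups did not overlap for 1 of 7 genes with WT PSC medium (25.2% of all genes) and 0 of 7 with HT PSC medium (24.4%).

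Saa1 read -2.77, -2.80 and -3.05 in HT PSC medium, -3.17, -2.76 and -2.68 in WT PSC medium and -2.89, -2.67 and -3.09 in control medium, so that the 3 group means differ by less than their spread. Hp read -4.34, -5.13 and -5.20 in HT PSC medium, -4.89, -4.94 and -4.69 in WT PSC medium and -4.79, -4.55 and -5.63 in control medium. The last of these was not well above background. The Hp intervals against control, -0.59 to 0.79 with HT PSC medium and -0.54 to 0.84 with WT PSC medium, were the widest of the 7 genes. Saa3 was not well above background on any of the 9 cancer cell arrays, at -7.74 to -7.51 in HT PSC medium, -7.65 to -7.04 in WT PSC medium and -7.45 to -6.85 in control medium.

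Between HT PSC medium and WT PSC medium, limma called 0 of 7 genes and 0% of all genes. At an unadjusted p under 0.05 it found 1 of the 7 (Osmr, 0.46 ± 0.16, adjusted p = 0.975) and 960 of all genes. Groups did not overlap for 2 of the 7, Osmr and Socs3 (0.14 ± 0.08, limma adjusted p = 0.984), and for 11.5% of all genes. Within slides 1 and 2 the Osmr difference was 0.60 and 0.12.

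Among the pathway genes of the cancer cells, 5 of 57 tested were higher and 3 lower with HT PSC medium, and 3 were higher and 5 lower with WT PSC medium, all relative to the shared controls. Of all genes, 2.97% were higher and 2.5% lower with HT PSC medium, and 2.8% higher and 3.15% lower with WT PSC medium. The acute phase protein genes that passed were lower, and the STAT3 target genes that passed were higher. With each medium, most tested genes of both roles did not pass. Between the 2 media 0 of 57 passed, with 10 at an unadjusted p under 0.05.

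Of 9 other acute phase protein genes tested, 2 were lower with HT PSC medium, 4 were lower with WT PSC medium, and 0 were higher with either. C3, the central complement component, read -1.09, -1.67 and -1.16 in HT PSC medium, -1.61, -1.73 and -1.65 in WT PSC medium and -0.25, -0.31 and -0.57 in control medium. All 6 arrays with PSC medium lie below the 3 controls (-0.93 ± 0.15 with HT PSC medium, limma adjusted p = 0.0128, and -1.28 ± 0.15 with WT PSC medium, limma adjusted p = 0.00238). Hpx, which encodes the haem carrier hemopexin, read -3.16, -3.36 and -2.93 in HT PSC medium, -3.38, -3.42 and -3.25 in WT PSC medium and -2.54, -2.57 and -2.61 in control medium, also without overlap (-0.58 ± 0.11 and -0.77 ± 0.11). Lbp and Cp, the ceruloplasmin gene, passed with WT PSC medium (-1.0 ± 0.20 and -0.65 ± 0.15). The summed level of the hepatocyte markers was lower too, at 0.293 to 0.410 in HT PSC medium, 0.280 to 0.312 in WT PSC medium and 0.586 to 0.701 in control medium. Of 4 tested, 1 passed in each, Ttr, whose readings were the brightest in control medium, so the sum rests largely on it. Groups did not overlap for 4 of the 4 with WT PSC medium and for 2 with HT PSC medium (25.2% and 24.4% of all genes). Apoa1 on HT PSC medium 3, at -2.75, lay above its controls. The part of hepatocyte-type expression in the acute phase differences was not tested.

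Of 13 target genes tested, 4 were higher with HT PSC medium and 3 with WT PSC medium. Pim1, a survival kinase gene, read 2.27, 2.25 and 2.29 in HT PSC medium, 2.32, 2.25 and 2.29 in WT PSC medium and 2.02, 1.85 and 1.76 in control medium. Its differences were 0.39 ± 0.07 (limma adjusted p = 0.0207) and 0.41 ± 0.07 (limma adjusted p = 0.0157). Junb, an AP-1 subunit gene, and Bcl2l1, which encodes the anti-apoptotic Bcl-xL, were higher by 0.39 ± 0.09 and 0.39 ± 0.08 with HT PSC medium and by 0.43 ± 0.09 and 0.40 ± 0.08 with WT PSC medium. With the replicate number as a block, the WT PSC medium values for Junb and Bcl2l1 did not pass (limma adjusted p = 0.0671 and 0.0569). Myc was higher with HT PSC medium (0.35 ± 0.07, limma adjusted p = 0.0323). With scaling to the array median, Junb and Bcl2l1 did not pass with either medium, nor did Myc with HT PSC medium. Pim1 passed with both under that scaling. Among the acute phase genes, Hpx with HT PSC medium and Cp with WT PSC medium were lost under it. With HT PSC medium, Myc passed in 7 of 23 alternatives and Junb in 8 of 23.

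Of the ligand and receptor genes, Lif and Il6ra passed with HT PSC medium. Lif read -3.06, -3.03 and -2.88 in HT PSC medium, -3.20, -3.33 and -3.17 in WT PSC medium and -3.40, -3.73 and -4.02 in control medium (0.73 ± 0.14 with HT PSC medium, limma adjusted p = 0.0232, and 0.49 ± 0.14 with WT PSC medium, limma adjusted p = 0.0931). The order HT PSC medium, WT PSC medium, control holds for every array of Lif, while the test between the media gave 0.24 ± 0.14 (limma adjusted p = 0.984). Il6ra was lower with HT PSC medium (-0.39 ± 0.09), and Nfkbiz was lower with WT PSC medium (-0.51 ± 0.10). Il6 was not well above background on any cancer cell array, and Il6st, Jak1, Jak2 and Cebpd did not pass in either medium.

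Within slides 1 and 2, C3 differed from control by -0.71 and -1.36 with HT PSC medium and by -1.20 and -1.38 with WT PSC medium, and Hpx by -0.47 and -0.79 with HT PSC medium and by -0.80 and -0.76 with WT PSC medium. Pim1 differed by 0.39 and 0.40 with HT PSC medium and by 0.43 and 0.42 with WT PSC medium, and Lif by 0.75 and 0.70 with HT PSC medium. Within a slide, 0 of the 57 passed in either medium.

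With WT PSC medium, C3 and Hpx passed whichever of the 9 arrays was left out. Pim1 was lost without control 2, WT PSC medium 1 or WT PSC medium 3, and Nfkbiz without control 1, control 2, WT PSC medium 2 or WT PSC medium 3. Lbp and Junb were lost without any 1 control, WT PSC medium 2 or WT PSC medium 3, and Bcl2l1 without control 1, control 3 or any 1 WT PSC medium array. Cp passed only without HT PSC medium 2. With HT PSC medium, C3 was lost without control 1, and Hpx without control 1, control 2 or HT PSC medium 1. Pim1 and Lif were lost without control 2 or any 1 HT PSC medium array, and Bcl2l1 without control 1, control 3 or any 1 HT PSC medium array. Il6ra was lost without control 1, control 2, WT PSC medium 1 or any 1 HT PSC medium array, and Myc without control 1, control 2, WT PSC medium 2, WT PSC medium 3, HT PSC medium 1 or HT PSC medium 3. Junb passed only without WT PSC medium 3.

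**Figure D4:**
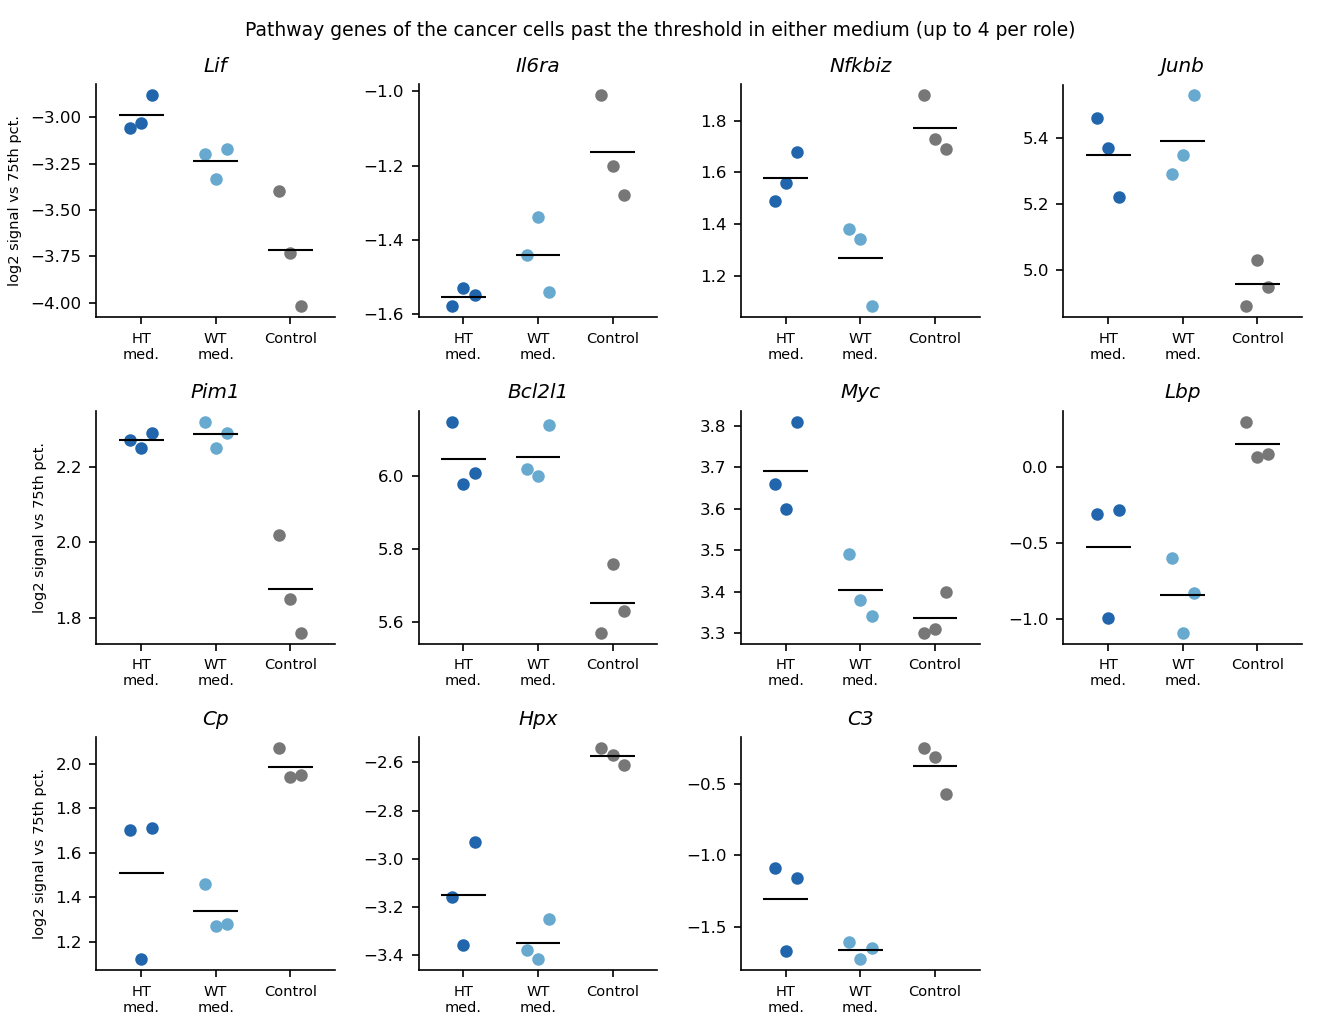
Log2 signal relative to the array's 75th percentile (y axis) in cancer cells in HT PSC medium, WT PSC medium and control medium (x axis) for pathway genes past the threshold with either medium, at most 4 per role. Points are arrays and lines are means of 3 arrays. C3, Hpx, Lbp and Cp sit lower in both media than in control, and Pim1, Junb and Bcl2l1 higher.

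The third comparison sets PSC WT against cancer cells in control medium. Saa1, Saa3, Hp, Osmr and Stat3 were higher in PSC WT, and Socs3, Bcl3 and Lcn2 were lower. All 8 genes tested passed, 5 higher and 3 lower, where 71.4% of all 21928 genes passed (36.1% higher, 35.2% lower), and groups did not overlap for 8 of the 8 and for 75.5% of all. The median difference was 2.99 over the 8 and 0.037 over all genes. With scaling to the array median in place of the 75th percentile, the median over all genes was -0.35 and 33.8% of calls were higher in PSC WT, against 50.6% with the 75th percentile, while the 8 genes kept their directions.

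Saa3 had the widest contrast of the 8 genes, with PSC WT at 3.44, 3.52 and 3.53 and control cells at -7.45, -6.85 and -7.45, none of them well above background. It was at least 530-fold higher in PSC WT (limma adjusted p = 2.70e-08), a bound that sets the PSC WT mean against the mean of the higher of each control array's floor and its reading. Osmr was 37.7-fold higher (5.24 ± 0.11, limma adjusted p = 8.22e-08), and its 2 dimmer probes were well above background on all PSC arrays and on 0 cancer cell arrays. Hp was 19.9-fold higher (4.31 ± 0.28, limma adjusted p = 1.46e-05) and Saa1 16.9-fold higher (4.08 ± 0.13, limma adjusted p = 4.67e-07). Saa1 was well above background on all 15 arrays.

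Stat3 was 3.72-fold higher in PSC WT (1.89 ± 0.12, limma adjusted p = 1.20e-05), and a second Stat3 probe well above background on all arrays gave 1.79. Socs3 lay at 0.89 to 1.07 in PSC WT and 2.56 to 2.77 in control cells, a difference of -1.67 ± 0.10 (limma adjusted p = 8.10e-06). Bcl3 lay at 1.93 to 2.25 in PSC WT and 4.02 to 4.20 in control cells (-1.97 ± 0.12, limma adjusted p = 8.56e-06). The transcription factor gene was higher, and both of these regulator genes lower, in the same arrays.

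Lcn2 was lower in PSC WT (-0.54 ± 0.13, limma adjusted p = 0.00831), with -0.24 and a limma adjusted p of 0.0961 after normexp background correction. Within slides 1 and 2 the differences were 10.89 and 10.37 for Saa3, 5.22 and 5.20 for Osmr, 4.30 and 3.99 for Hp and 4.06 and 3.93 for Saa1. They were 2.04 and 1.84 for Stat3, -1.82 and -1.52 for Socs3, -2.12 and -1.97 for Bcl3 and -0.60 and -0.67 for Lcn2, whose adjusted p within slide 1 was 0.0523 (limma). The control arrays of Lcn2 span -3.61 to -3.28, above the highest PSC WT array at -3.88.

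The order of the 5 groups by mean level can be given for the 8 genes tested. PSC HT was highest and PSC WT next for Osmr, Hp and Stat3, and PSC WT came first and PSC HT next for Saa1 and Saa3. The 3 cancer cell groups came first for Socs3, Bcl3 and Lcn2. Between PSC HT and PSC WT, arrays overlap for Saa1, Lcn2, Stat3, Socs3 and Bcl3. Among the 3 cancer cell groups, neighbours in the order overlap or touch for all 7 genes tested there. The cancer cell readings of Saa3, none of them well above background, were not put in order. At the step between the cell types the nearest groups lie apart, except that for Lcn2 the lowest WT PSC medium array and the highest PSC HT array both read -3.75.

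Of the pathway list, 32 of 65 tested were higher in PSC WT than in control cancer cells and 18 lower, with a median of 0.32, where 71.4% of all genes passed (36.1% higher, 35.2% lower). Il6 read 2.21, 2.41 and 2.39 in PSC WT and was not well above background in control cells, at least 237-fold higher in PSC WT. Il11 was higher by 1.94 ± 0.17. Of 8 receptor genes tested, 7 were higher in PSC WT and 0 lower. Among the 7 were Il6st (2.82 ± 0.11), Il11ra1 (2.46 ± 0.10), Il6ra (2.06 ± 0.10) and Cntfr (at least 6.61-fold). Il22ra1 and Il10rb, also among the 7 and named after their values were seen, each changed sign in 1 of 19 alternatives. Il22ra1 ranged from -1.18 to 1.32, and Il10rb was -0.07 when arrays were scaled to their median.

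Cebpb was higher by 0.99 ± 0.09 and Jak1 by 0.59 ± 0.08, while Jak2 differed by -0.94 ± 0.10 and Nfkbiz by -1.21 ± 0.12. Among inhibitors, 4 of 7 tested were lower, Ptpn6 (-3.74 ± 0.34), Socs1 (-0.82 ± 0.09), Cish (-0.78 ± 0.10) and Ptpn2 (-0.59 ± 0.08), and 2 were higher. Socs2, of the same family as Socs1, Cish and Socs3, was 1 of the 2 that were higher and is named after its values were seen (0.29 ± 0.09, limma adjusted p = 0.0215). Its difference was -0.10 when arrays were scaled to their median, and its call was lost without PSC WT 3, control 1 or control 2. The targets Timp1 (4.44 ± 0.15) and Steap4 (at least 2.10-fold) were higher and Myc (-3.02 ± 0.12) and Ccnd1 (-2.94 ± 0.18) lower. The acute phase genes Ptx3 (at least 63.5-fold), Serpina3n (at least 9.76-fold) and Serpina3g (at least 4.49-fold) were higher, and Il1rn differed by -7.95 ± 0.12. Apart from Socs2, Il10rb and Il22ra1, the genes named here kept their direction within both slides and under each scaling, with Jak1 at 0.20 when arrays were scaled to their median.

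For each gene, those with the most similar pattern over the 15 arrays were sought among 14782 genes after the mean of each cell type was subtracted, as a description with no test. Hp was closest to Man2a2 (Pearson r = 0.942), Tmem38a (0.921) and Tmem176b (0.910), and Osmr to Eda (0.913). Saa3 was closest to Maf (0.905), Saa1 to Ssbp2 (0.919), Lcn2 to Wdr25 (0.819) and Stat3 to Rab3gap2 (0.893). Socs3 was closest to Rcan3 (0.926) and Bcl3 to Plch1 (0.940). Each r is the highest among 14782 genes, so it is high by selection. Group means were not subtracted, so differences between groups of a cell type enter it. The 15 arrays share slides and scaling.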

How the data were processed

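RNA from 15 samples was read on 1-colour Agilent mouse arrays, labelled with Cy3 through double-stranded cDNA per the labels. The deposited scanner files hold spot intensity, extracted with Agilent Feature Extraction 10.7.3.1 and background subtracted within each array per the file headers, with no scaling between arrays. The series matrix that the authors deposited is on a log2 scale, and how it was made is not given in the sources used here. Column medians are 6.95 in PSC and 6.90 in cancer cells, quantiles are shared within a cell type, and r with log2 mean signal is 0.995 to 0.999. It was used as an alternative, and only inside 1 cell type.

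The processed intensity was put on a log2 scale and shifted so that the 75th percentile of an array is 0. Control spots and spots marked as outliers were left out, and spots of a probe were averaged. Of 56605 probes, 32994 were named by accession, 10224 by symbol and 520 by synonym in RefSeq, and 12867 kept the name in the file. A gene was read from its brightest probe and tested where some group in the fit had that probe well above background on every array. Where no array of a group was well above background, a fold is a lower bound against the higher of each array's floor (the lowest signal well above background) and its reading.

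limma 3.58.1 (R 4.3.3) gave the differences, in 1 fit for PSC, 1 for cancer cells and 1 for PSC WT against control cells, with Benjamini-Hochberg adjustment over all genes and a threshold of 0.05. The members and the lists were chosen with earlier results of these data known. Per role and comparison, up to 4 list genes past the threshold with the largest differences are named, and Il6, Il6st, Il6ra, Jak1, Jak2 and Cebpd whatever their values. Between the PSC genotypes, Lrg1, Cp, Mt1 and Mt2 are also named, for calls that an alternative ended or kept. Some genes that this rule names are not reported here. As alternatives, normexp with an offset of 50, other scalings, other filters and probe rules, blocks for slide or replicate number, an intensity trend, all arrays in one fit and a stricter threshold were tried. In fits within a slide, single arrays borrow the spread of the remaining groups.

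Same-numbered arrays were checked for pairing by the correlation of their deviations from group means. Between WT PSC medium and control it was 0.14, 0.21 and 0.20, all above 0.1, so there the blocked value is given where it changes a call. Differently numbered arrays of that comparison gave -0.36 to 0.17. The correlation of same-numbered arrays reached 0.1 in only some or none of the pairs of the other comparisons.

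On simulated data, log2 changes of 0.5, 1 and 2 were called in 25.4%, 80.6% and 87.9% of genes between the PSC genotypes. The shares were 43.3%, 80.6% and 95.5% in the WT PSC medium comparison, then 16.4%, 67.2% and 83.3% between the cell types, with 0 in the wrong direction. With 3 arrays a group, the number of arrays sets the precision. Python 3.11.15 with pandas 2.3.3, numpy 2.4.6, Biopython 1.88 and matplotlib 3.10.9 handled sequences, summaries and plots, and R read files with the data.table package (1.17.8).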

Additional observations from a re-analysis of the deposited data

Results flagged for a closer look

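Orm1 gave a reading well above background in single arrays of medium-treated cancer cells and in 0 of 3 control arrays, although the gene was outside every test. One was HT PSC medium 1, at -4.13 (70.2 signal units), against -7.15 and -7.83 on HT PSC medium 2 and 3. The other was WT PSC medium 3, at -3.74 (93.8 signal units), against -7.27 and -8.01 on WT PSC medium 1 and 2. The controls read -7.96, -7.80 and -6.89. A similar single reading, -3.82 (101 signal units), was on PSC WT 2. The probe lists accessions of Orm1 and Orm2.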

How the results depend on the processing

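Of the 8 genes tested between PSC HT and PSC WT 2 passed. With normexp correction, quantile normalization, median scaling, no filter on dim probes, the mean over a gene's probes, slide 2 alone, the replicate block, all 15 arrays in one fit, a threshold of 0.01 or the series matrix 1 passed, and within slide 1 0 did. In the fits without 1 array the count was 1 each time. Over all genes 1615 passed, with 401 without the filter, 0 within slide 1, 627 within slide 2, 2459 with all 15 arrays in one fit, 520 at 0.01 and 574 to 1414 without 1 array (fewest without PSC WT 3). The pathway count of 19 became 3 without the filter, 0 within slide 1, 5 within slide 2, 5 at 0.01 and 6 to 16 without 1 array. With the replicate number as a block, Osmr did not pass (limma adjusted p = 0.118). Nor did Il6 (0.0812), Il11 (0.0771), Cntfr (0.0756), Jak2 (0.0960), Tgm2 (0.0680), Lrg1 (0.0805) and Cp (0.0577) of the pathway list. Same-numbered PSC arrays correlated at 0.13, 0.09 and 0.

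With WT PSC medium 1172 genes passed, against 638 with median scaling, 467 without the filter, 18 within slide 1, 0 within slide 2, 472 at 0.01 and 577 to 1109 without 1 array. The pathway count of 8 became 4, 2, 0, 0 and 2 under these settings and 2 to 11 without 1 array. With HT PSC medium 1077 genes passed, against 535 with median scaling, 334 without the filter, 0 within either slide, 327 at 0.01 and 484 to 928 without 1 array. The pathway count of 8 became 3 with median scaling, 0 without the filter, 5 with the mean over probes, 0 within either slide, 0 at 0.01 and 1 to 8 without 1 array. None of the 7 genes passed in either medium or between the media in any of these settings, and 0 did without 1 array. Between the media 0 genes passed, and 1 did with normexp correction, median scaling, an intensity trend, all 15 arrays in one fit or the series matrix, with 0 to 1 without 1 array for all genes and 0 for the pathway. With WT PSC medium the replicate block left 6 of the 8 pathway genes, without Junb and Bcl2l1. With HT PSC medium the same block ended the calls of Junb (limma adjusted p = 0.0911), Bcl2l1 (0.0637), Myc (0.0604) and Il6ra (0.0546). Between PSC WT and control cells 7 genes passed after normexp correction or within slide 1, 6 when a probe had to be well above background on every array, which leaves fewer genes tested, and 8 without any 1 array, with 14143 to 15308 of all genes and 48 to 52 pathway genes. The cause of these changes was not tested, apart from the fewer arrays within a slide. Genes near the floor, such as Hp in cancer cells, rest on dim readings. No alternative turned the direction of a member that passed.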

Other observations

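Orm2, Orm3 and Saa4, relatives of the members on the pathway list, were at the dim end as well. Orm2 read -7.83 to -6.98 in PSC HT and -8.32 to -7.79 in PSC WT, and Saa4 read -7.79 to -6.96 in PSC HT and -8.31 to -6.71 in PSC WT. Orm3 reached -4.43 on WT PSC medium 3 and -5.78 on HT PSC medium 1, the arrays on which Orm1 was well above background, but was itself well above background only on WT PSC medium 3. It lay between -8.02 and -6.60 in control medium. Osm, the oncostatin M gene, was well above background on 2 of 3 PSC HT arrays, at -2.93, -4.87 and -5.07, and on 0 of 3 PSC WT arrays, at -6.13, -6.66 and -6.71.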
